A study of Mus musculus with 26 samples.

Results

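Nucleotide synthesis and salvage genes were examined in mouse S49 T lymphoma cells during cyclic AMP (cAMP) treatment. The set comprised 39 genes, chosen by symbol, whose products build purine and pyrimidine nucleotides, recover them from bases and nucleosides, or convert them to deoxynucleotides. Of these, 34 had an array probe set that carries their symbol alone, among 12394 genes with such a probe set, and 33 passed the intensity filter and were tested. Dctd, Pfas, Atic, Impdh2 and Gmps had no probe set of their own and were not analysed here. Adss1 was measured but lay near log2 3 in every group and was not tested. The members, and the lists set beside them below, were chosen with earlier results of these data known, so their counts are descriptive.

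Cells make purine rings stepwise on phosphoribosyl pyrophosphate and make the pyrimidine ring before the sugar is attached, and salvage enzymes return free bases and nucleosides to the pool. Ribonucleotide reductase turns ribonucleotides into deoxynucleotides, and together with thymidylate synthase it supplies the precursors of DNA, so genes of that arm are known for high expression in S phase. Lymphoid cells are known for their sensitivity to imbalance of these pools, as in the immunodeficiencies caused by loss of adenosine deaminase or purine nucleoside phosphorylase.

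Wild-type S49 cells (WT) arrest in G1 and then die when cAMP is raised, whereas the variant line D-, called deathless, survives. Each line was measured untreated on 4 arrays and after 2, 6 and 24 h of 8-CPT-cAMP, an analogue of cAMP that enters cells and switches on cAMP-dependent protein kinase, on 3 arrays per time, 26 arrays in all. The labels give 1 concentration for all treated groups, 100 mM, a unit that may be an error, and no group is described as carrying a transgene or an engineered allele. Both lines grew in suspension in medium with horse serum, and each stands for 1 cell line, so that whatever else separates the lines cannot be told apart from survival. The labels call replicates biological but describe no separate cultures. The p-values therefore reflect how far these particular arrays spread, and part of that spread may be technical. Titles of treated WT samples contain the word untreated, against their other fields, which were followed.

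The promoters of Rrm1 and Rrm2 are shown because they encode the large and small subunit of 1 enzyme, ribonucleotide reductase, and both genes fell in WT at 24 h. Those of Ppat and Paics are shown because these purine genes are neighbours. Each sequence is the 250 bases before the annotated start, in the direction of transcription, from RefSeq on build GRCm38.p6, and capitals mark the words CACGTG (E-box) and CCAAT where a search of both strands found them.
Rrm1 (chr7:102441445-102441694, plus strand): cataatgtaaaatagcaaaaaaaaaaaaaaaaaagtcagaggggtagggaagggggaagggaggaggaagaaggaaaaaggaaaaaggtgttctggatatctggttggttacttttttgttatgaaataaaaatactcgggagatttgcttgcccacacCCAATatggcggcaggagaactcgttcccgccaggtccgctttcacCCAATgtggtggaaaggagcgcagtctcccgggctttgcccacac
Rrm2 (chr12:24708004-24708253, plus strand): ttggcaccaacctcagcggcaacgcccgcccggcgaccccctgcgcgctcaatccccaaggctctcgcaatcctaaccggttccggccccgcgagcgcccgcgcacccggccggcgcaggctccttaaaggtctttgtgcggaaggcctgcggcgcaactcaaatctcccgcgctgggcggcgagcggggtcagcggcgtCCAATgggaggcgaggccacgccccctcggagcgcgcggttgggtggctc
Paics (chr5:76951052-76951301, plus strand): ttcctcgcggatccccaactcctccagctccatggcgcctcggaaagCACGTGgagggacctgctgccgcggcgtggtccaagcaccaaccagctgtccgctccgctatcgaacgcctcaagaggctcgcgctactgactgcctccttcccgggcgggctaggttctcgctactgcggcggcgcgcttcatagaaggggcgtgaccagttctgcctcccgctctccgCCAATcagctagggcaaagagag
Ppat (chr5:76951579-76951828, minus strand): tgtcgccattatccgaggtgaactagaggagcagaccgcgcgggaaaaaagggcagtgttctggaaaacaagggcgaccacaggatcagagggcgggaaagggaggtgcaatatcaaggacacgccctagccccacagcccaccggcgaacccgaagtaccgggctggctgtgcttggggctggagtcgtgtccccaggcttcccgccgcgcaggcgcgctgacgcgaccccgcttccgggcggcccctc
Rrm1 and Rrm2 each carry CCAAT, a word held by 11 of the 33 members with a window and by 37.5% of all 27025 genes with one. The annotated starts of Paics and Ppat lie 276 bases apart on opposite strands, and each gene is read towards the start of the other. The bases between the starts are in neither window and were not searched. The Paics window has an E-box, and that of Ppat has none of the words searched. An E-box was also found before Tyms, Dtymk and Nme1, 4 members in all, against 6.86% of all genes. Neither the E2F words TTTCGCGC and TTTGGCGC nor the cAMP response element TGACGTCA was found in a member's window, and 0.759% and 1.77% of all genes had them. A match of letters is a description only, and no match says only that these letters are not in this window.

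Arrays of 1 group correlated across probe sets at r between 0.972 and 0.995, and the number of arrays limits the precision. The arrays were divided into 2 sets by replicate number, and by their deviations from the group means all 26 lay closer to their own set. Deviations within a group cancel out, which lowers correlations between the sets in advance, so this check alone does not establish them. Set 1 held replicate 1 of every treated group and replicates 1 and 2 of both untreated groups, 10 arrays, and set 2 held the other 16. The labels do not name these sets. Replicate 1 lay nearest to the untreated mean for 25 of the 31 members called in WT at 24 h and for 17 of the 19 called in D-. The signal of Gapdh probes near the 3′ end minus those near the 5′ end, a sign of RNA integrity, was 0.0961 ± 0.196 (SD, n = 3) in WT at 24 h and between -0.0927 and -0.0377 in the D- groups. It was -0.146 ± 0.058 (SD) over the 10 arrays of set 1 and 0.018 ± 0.094 over the 16 of set 2, and its part in the results was not tested. All 9 measured T lineage markers reached log2 5 in some group, but they moved with treatment. In WT at 24 h, Cd3d, Cd3e, Cd3g, Cd28 and Zap70 were above their untreated means and Thy1, Lat, Ptcra and Rag1 below. Ptcra went from 9.57 to 4.85 in WT and from 11.62 to 7.16 in D-, and Rag1 from 11.63 to 7.20 and from 11.93 to 10.39. Of the markers of other cells, 1 of 4 B cell, 3 of 5 myeloid, 1 of 3 erythroid and 1 of 5 stromal genes reached log2 5. Cd79a, Csf1r, Adgre1 and Klf1 were above it in untreated WT (5.23, 5.83, 5.02 and 5.42), while Cd79b, Pax5, Lyz2, Hba-a1 and Col1a1 stayed under it. The myeloid list averaged between 4.36 and 4.78 over the groups. Itgam in that list moved from 4.05 untreated to 6.24 at 24 h in WT and from 4.42 to 5.84 in D-. The stromal gene Pdgfrb stood at 3.52 untreated, 6.42 at 6 h and 4.63 at 24 h in WT, and at 3.29, 4.03 and 3.39 in D-. The part of other cells in the results was not tested. In RNA from bulk cultures, fewer cells of a kind and less RNA per cell cannot be told apart.

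Few genes of nucleotide synthesis were called at 2 h, most fell in both lines by 6 h, and at 24 h the lines parted. By 24 h most purine and pyrimidine synthesis genes were low in both lines. Of the deoxynucleotide genes, 6 were low at 24 h in WT and none in D-. These statements rest on limma fits to log2 intensity over all 12724 tested probe sets, with calls at a Benjamini-Hochberg adjusted p under 0.05. The ± after a change is its standard error, from a spread per probe set that all 8 groups share. Arrays of WT at 24 h could spread more, as for Rrm1, with an SD of 0.60 there and 0.09 in untreated WT. Standard errors and p-values for WT at 24 h may therefore be too small. In alternative limma fits, apart from set 1 alone and those without 1 array, the adjusted p for Rrm1 there reached 0.00121. Comparisons within a line share the same 4 untreated arrays.

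At 2 h, 1 member rose and 3 fell in WT, where 11.6% and 13.1% of all tested probe sets rose and fell. The D- cells at 2 h likewise had 1 member that rose and 3 that fell, against 9.29% and 12.4% of all. At 6 h, 3 members rose and 23 of the 33 fell in WT, against 17.6% and 18.6% of all probe sets. The D- line had 1 member that rose and 21 that fell at that time, against 15.4% and 14.9%. At 24 h the counts were 5 up and 26 down in WT, against 24.6% and 28.0% of all, and 4 up and 15 down in D-, against 16.0% and 17.4%. These shares of all probe sets apply at the same times to the counts by role and by list below. Members are counted by the brightest probe set of each gene, and the shares by every tested probe set, dim ones included. The counts and shares are therefore not strictly like for like. The median change of the measured members at 24 h was -1.02 in WT and -0.34 in D-, on the log2 scale, where the median of all probe sets was -0.01 in both. Before treatment the lines differed in 1 member, Dguok, where 1.79% of all probe sets were higher and 2.74% lower in D-.

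Counts at 2 h were small and moved with single arrays: without WT replicate 3 at 2 h only 1 member was called, and without the untreated WT replicate 4, 2 were. In D- at 2 h, 1 member was called without the untreated replicate 4, and 2 without the untreated replicate 3 or without replicate 1 or 3 at 2 h. The count in D- at 6 h went from 22 to 14 without replicate 2 of that group. With each array left out in turn, 18 of the 26 calls in WT and 13 of the 22 in D- at 6 h held in every fit, as did 27 of 31 and 14 of 19 at 24 h. Within set 2 the counts of called members were 24 and 30 in WT at 6 and 24 h and 23 and 23 in D-. Within set 1, with 1 treated array per group, they were 12 and 21 in WT and 6 and 5 in D-.

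**Figure D1:**
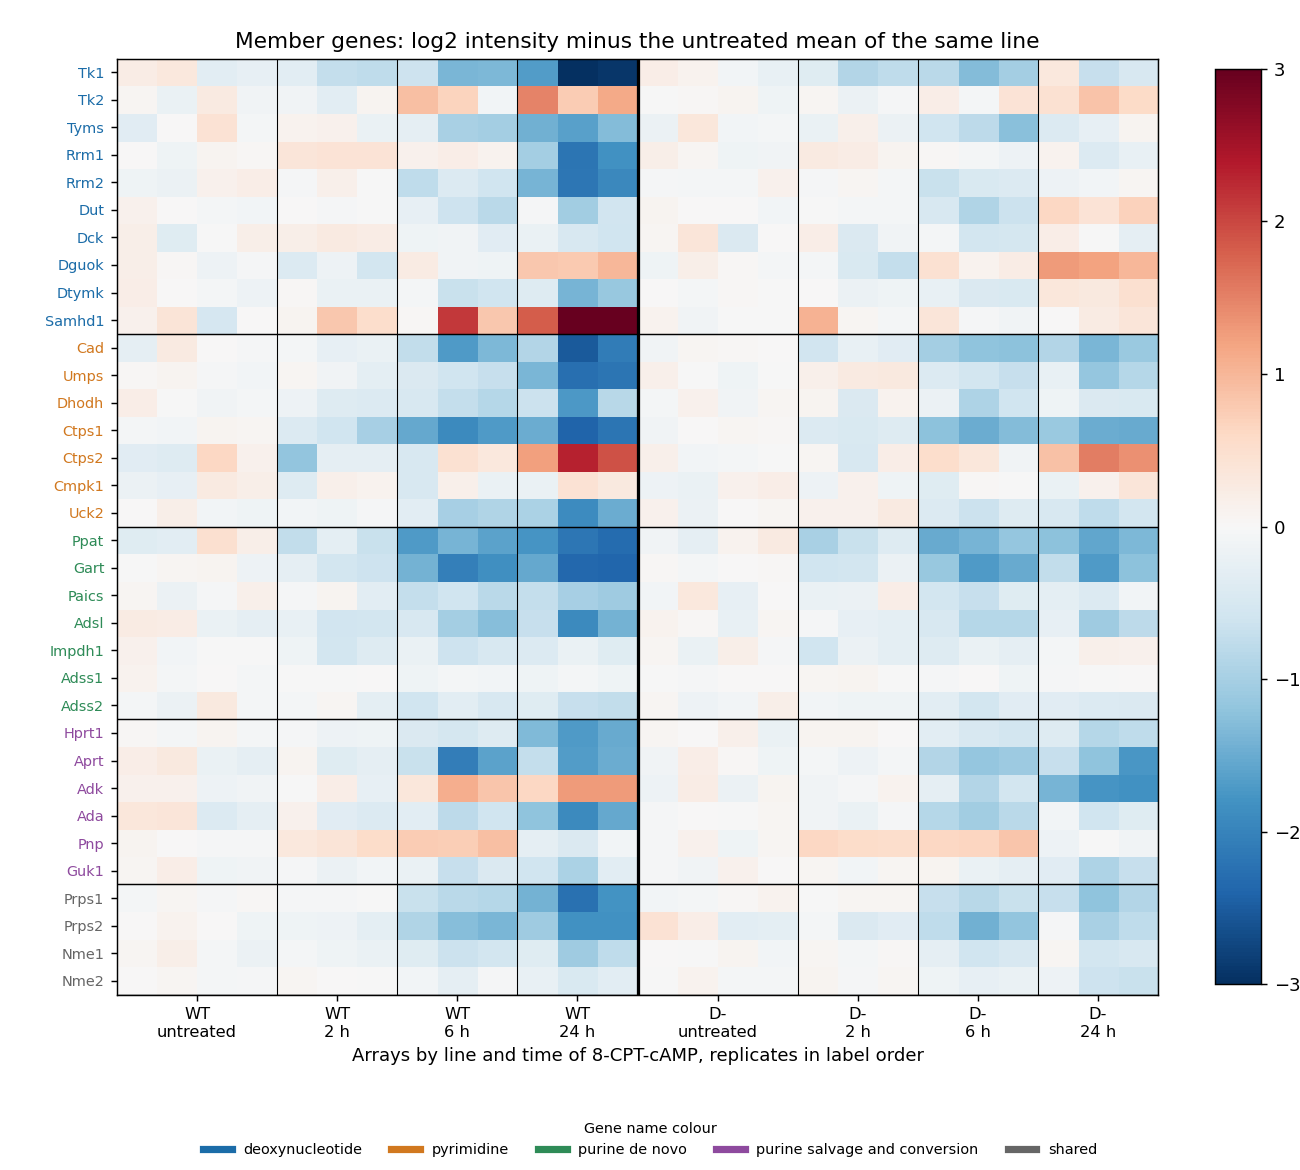
Each row is 1 of the 34 measured members and each column 1 of 26 arrays, coloured by log2 intensity minus the untreated mean of the same line. Blue fills most rows of WT at 24 h, while the upper, deoxynucleotide rows of D- at 24 h are pale or red and most of its purine and pyrimidine rows stay blue.

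**Figure D2:**
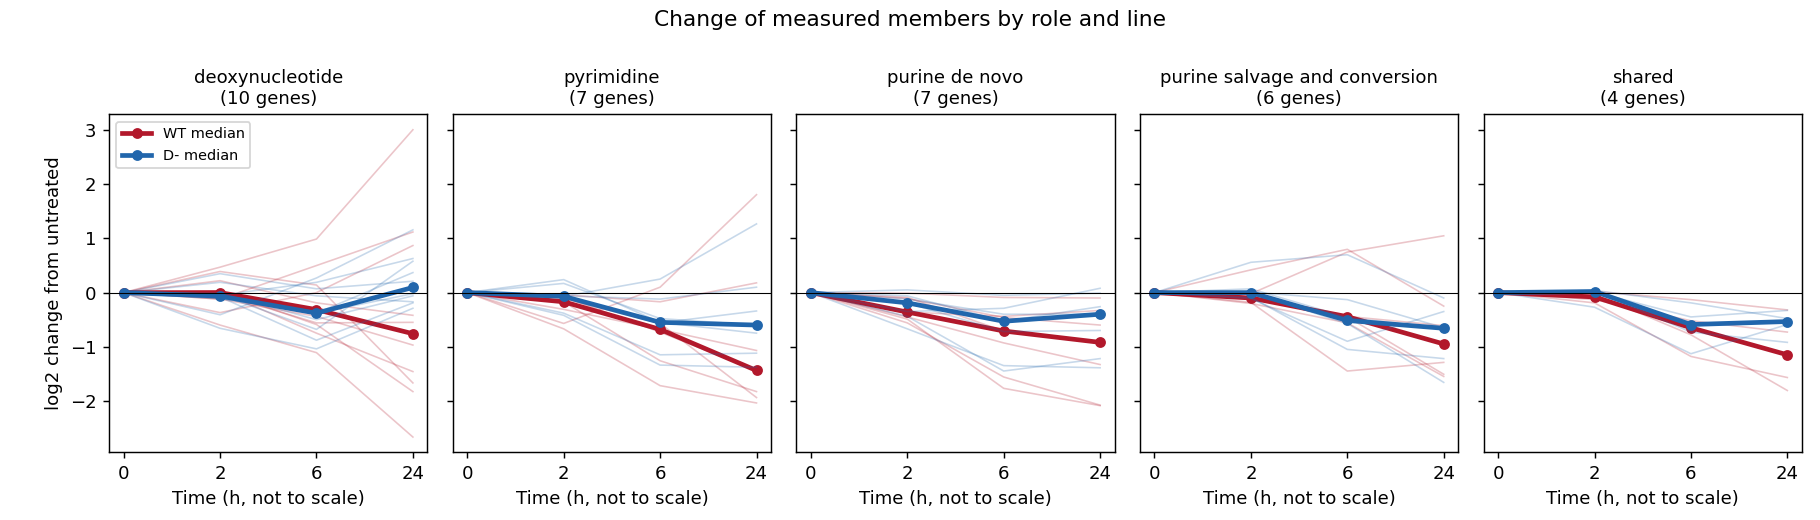
Log2 change of group means from untreated against time in h, in 5 panels by role, with thin lines for members and thick lines for the median in WT (red) and D- (blue). The medians of the lines lie close together at 6 h in each panel, and at 24 h the deoxynucleotide medians are -0.76 in WT and 0.09 in D-.

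The deoxynucleotide genes gave the widest gap between the lines. Of the 10 measured, 6 fell and 3 rose in WT at 24 h, and in D- none fell, 3 rose and 4 had an unadjusted p under 0.05. The role's median change was -0.32 in WT and -0.38 in D- at 6 h, then -0.76 and 0.09 at 24 h. At 6 h, Tk1, Tyms, Rrm2 and Dut fell in both lines, 4 of the 5 genes that fell in WT and all 4 that fell in D-. The WT call for Dut at 6 h was lost without WT replicate 3 at 6 h (adjusted p = 0.0731). Less stable in WT at 6 h were the fall of Dtymk and the rise of Tk2. Each was lost in 5 of 7 fits without 1 array (highest adjusted p = 0.213 and 0.287 by limma). Genes of DNA replication, listed for reference, gave 12 of 12 that fell in WT at 24 h with a median change of -2.03, and in D- 1 rose with a median of -0.30. At 6 h 1 of the 12 fell and 1 rose in WT, where 18.6% and 17.6% of all probe sets did. In D- 4 of the 12 fell at 6 h, against 14.9% of all. From 6 to 24 h all 12 fell in WT, against 16.7% of all probe sets. In that interval none was called in D- (0 at an unadjusted p under 0.05 by limma), where 7.2% and 7.72% of all rose and fell. The part of replication or cell cycle phase in the results was not tested.

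Rrm1 encodes the large subunit of ribonucleotide reductase. Its log2 intensity was 11.86, 11.72, 11.92 and 11.88 on the untreated WT arrays and 10.83, 9.65 and 10.03 at 24 h. In D- it was 12.03, 11.92, 11.73 and 11.75 untreated and 11.97, 11.46 and 11.63 at 24 h. All WT arrays at 24 h lay under the untreated ones, with replicate 1 the nearest, while those of D- overlapped with the untreated arrays. The change was -1.67 ± 0.17 in WT, a 3.19-fold fall (adjusted p = 6.02e-08), and -0.17 ± 0.17 in D- (adjusted p = 0.506). At 6 h Rrm1 had not fallen in WT (0.14 ± 0.17, adjusted p = 0.583), unlike Rrm2.

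Rrm2, the small subunit that carries the radical, read 12.92, 12.88, 13.17 and 13.25 in untreated WT, 12.29, 12.64 and 12.46 at 6 h, and 11.66, 10.88 and 11.12 at 24 h. In D- the arrays read 13.12, 13.09, 13.10 and 13.29 untreated, 12.49, 12.70 and 12.74 at 6 h, and 12.99, 13.06 and 13.20 at 24 h. The arrays at 6 h lay below the untreated ones in both lines. At 24 h the WT arrays were lower still, and of the D- arrays 1 lay inside the untreated range and 2 just below it. Rrm2 fell by 0.59 on the log2 scale at 6 h in WT (± 0.14, adjusted p = 0.00219) and by 0.50 in D- (± 0.14, adjusted p = 0.00888), a D- call lost without D- replicate 1 at 6 h (-0.42, adjusted p = 0.052). At 24 h the change was -1.83 ± 0.14 in WT (adjusted p = 9.9e-10) and -0.06 ± 0.14 in D- (adjusted p = 0.792).

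Tyms encodes thymidylate synthase, which makes thymidine monophosphate. Its arrays read 6.42, 6.77, 7.21 and 6.70 in untreated WT and 5.34, 5.13 and 5.46 at 24 h, a fall of 1.47 on the log2 scale (± 0.20, adjusted p = 2.91e-06) with no overlap. Those of D- read 6.49, 7.02, 6.59 and 6.61 untreated and 6.25, 6.43 and 6.76 at 24 h, which overlapped (-0.19 ± 0.20, adjusted p = 0.519). Tyms is uncertain, because only 1 of its own probe sets was tested. Its other own probe sets averaged log2 3.06 and 2.49 over all arrays and were not tested. A further probe set, shared with a pseudogene, was not used. Members with only 1 own probe set, among them Tk1, Tk2, Dguok, Ctps1, Ada and Hprt1, likewise have no second one to compare.

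Tk1, the thymidine kinase of the cytosol, showed the largest fall of any member in WT at 24 h. Its arrays read 10.44, 10.54, 9.91 and 9.98 untreated, 9.61, 8.84 and 8.87 at 6 h, and 8.54, 6.83 and 7.30 at 24 h. The D- arrays read 10.16, 10.07, 9.88 and 9.75 untreated, 9.17, 8.67 and 8.94 at 6 h, and 10.28, 9.27 and 9.49 at 24 h. WT fell at each of these times without overlap, and the D- arrays at 24 h spread over and below the untreated range. The change in WT was -1.11 ± 0.31 at 6 h (adjusted p = 0.00675) and -2.66 ± 0.31 at 24 h, a 6.33-fold fall (adjusted p = 2.41e-07). In D- it was -1.04 ± 0.31 at 6 h (adjusted p = 0.0126), a call lost without D- replicate 2 at 6 h (adjusted p = 0.067), and -0.28 ± 0.31 at 24 h (adjusted p = 0.532). Within set 2 alone, Tk1 was also lower in D- at 24 h (-0.43, adjusted p = 0.0355).

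Dut, the dUTPase that keeps uracil out of DNA, and Dtymk, the kinase of thymidine monophosphate, ended on opposite sides of the untreated level in the lines. Dut read 13.17, 13.05, 12.98 and 12.96 in untreated WT and averaged 12.49 ± 0.50 (SD, n = 3) at 24 h, where replicate 1 lay inside the untreated range. The D- arrays read 13.02, 12.96, 12.94 and 12.85 untreated and 13.57, 13.35 and 13.64 at 24 h, all above. Dut fell by 0.56 in WT (± 0.16, adjusted p = 0.00619) and rose by 0.58 in D- (± 0.16, adjusted p = 0.00772). The fall in WT was no longer called without WT replicate 2 at 24 h (-0.31, adjusted p = 0.0949) or with only the groups compared (adjusted p = 0.0661). Dtymk fell in WT (-0.97 ± 0.17, adjusted p = 4.75e-05), and its D- arrays at 24 h, 12.74, 12.69 and 12.86, all lay above the untreated ones without passing the test (0.37 ± 0.17, adjusted p = 0.0962).

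The kinases of mitochondrial salvage and the deoxynucleotide phosphohydrolase went the other way in WT at 24 h. Tk2, the thymidine kinase of mitochondria, rose at 24 h in WT (1.12 ± 0.19, adjusted p = 4.39e-05) and in D- (0.63 ± 0.19, adjusted p = 0.0144). Its rise in D- was lost without D- replicate 2 at 24 h (0.52, adjusted p = 0.0917). Dguok, the deoxyguanosine kinase of mitochondria, rose by 0.87 ± 0.14 in WT and 1.16 ± 0.14 in D- (adjusted p = 2.66e-05 and 2.11e-06), from an untreated level that was 0.67 ± 0.13 lower in D- (adjusted p = 0.00299). The untreated arrays for Dguok read 9.01, 8.86, 8.67 and 8.80 in WT and 8.02, 8.33, 8.20 and 8.11 in D-, with no overlap. At 2 h Dguok was called lower in D-, with group means of 8.16 untreated and 7.75 at 2 h. That call was lost in 5 of 7 fits without 1 array (highest adjusted p = 0.29). In WT the means were 8.83 and 8.46, without a call.

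Samhd1 breaks down deoxynucleoside triphosphates, and it rose in WT at 24 h. It read 4.57, 4.83, 3.94 and 4.47 in untreated WT, 4.48, 6.56 and 5.27 at 6 h, and 6.27, 8.49 and 7.64 at 24 h. In D- it read 4.70, 4.50, 4.59 and 4.59 untreated and 4.60, 4.85 and 4.97 at 24 h, all under log2 5. The untreated mean lay under the filter, so the rise in WT was at least 2.46 on the log2 scale (adjusted p = 3.23e-06), and no fold is given for D- (adjusted p = 0.761). At 6 h the WT arrays ranged from under the filter to 6.56 and the change did not pass the test (adjusted p = 0.0726). It did without WT replicate 1 at 6 h (adjusted p = 0.0114) and within set 2 (adjusted p = 0.00208). A second probe set of Samhd1 was under log2 5 in the untreated cells and averaged 5.95 ± 1.95 (SD, n = 3) in WT at 24 h. It did not pass the filter and was not tested. The remaining probe sets of Samhd1 averaged log2 2.89 and 2.35 over all arrays and were not tested either.

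Dck, the deoxycytidine kinase that also activates nucleoside drugs, passed no test against untreated. It read 11.08, 10.53, 10.89 and 11.08 in untreated WT and 10.71, 10.43 and 10.31 at 24 h, and 10.88, 11.18, 10.37 and 10.82 in untreated D- and 11.01, 10.80 and 10.55 at 24 h. The groups overlapped in both lines. The change at 24 h was -0.41 ± 0.18 in WT (adjusted p = 0.0654) and -0.03 ± 0.18 in D- (adjusted p = 0.938).

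**Figure D3:**
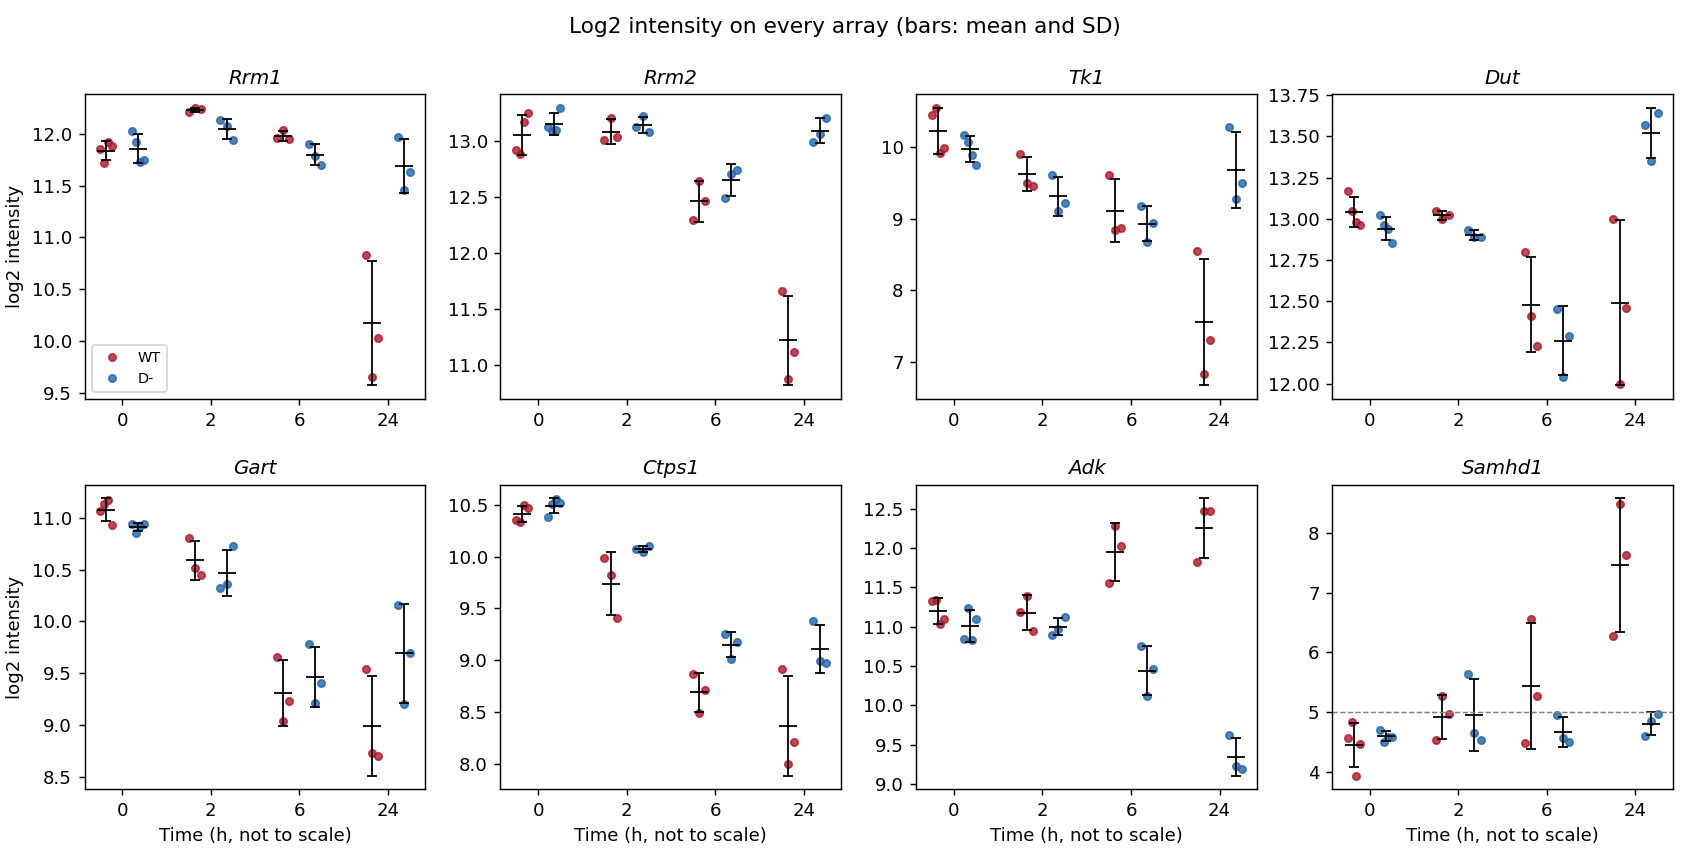
Log2 intensity on every array of 8 genes against time in h, WT in red and D- in blue, with bars for the mean and SD of 3 or 4 arrays; the dashed line for Samhd1 is the filter at log2 5. At 24 h Rrm1, Rrm2 and Tk1 lie below the untreated arrays in WT and overlap with them in D-, Gart and Ctps1 drop by 6 h in both lines, and Adk moves up in WT and down in D-.

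The pyrimidine genes fell in both lines by 6 h. Of the 7 measured, 5 fell in WT and the same 5 fell in D- at 6 h (Cad, Umps, Dhodh, Ctps1 and Uck2), with medians of -0.68 and -0.55. Of these calls in D-, those for Umps, Dhodh and Uck2 were lost in 3, 5 and 5 of 7 fits without 1 array (highest adjusted p = 0.119, 0.23 and 0.149), the fits without D- untreated replicate 1 or D- replicate 2 or 3 at 6 h among them for each gene. In WT, Umps was lost without WT replicate 2 or 3 at 6 h and Dhodh without WT replicate 3 at 6 h (highest adjusted p = 0.0791 and 0.063). At 24 h, 5 fell and 1 rose in WT, with a median of -1.44, and 4 fell and 1 rose in D-, with a median of -0.61.

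Cad carries the first 3 activities of pyrimidine synthesis on 1 chain. It read 10.18, 10.70, 10.45 and 10.40 in untreated WT, 9.70, 8.74 and 9.10 at 6 h, and 9.57, 7.91 and 8.35 at 24 h. The D- arrays read 10.48, 10.64, 10.63 and 10.60 untreated, 9.58, 9.38 and 9.37 at 6 h, and 9.72, 9.23 and 9.47 at 24 h. No treated array at these times reached an untreated one in either line, and WT replicate 1 stayed the highest. The change was -1.25 ± 0.26 at 6 h and -1.82 ± 0.26 at 24 h in WT (adjusted p = 0.000627 and 3.99e-06), and -1.14 ± 0.26 and -1.11 ± 0.26 in D- (adjusted p = 0.00176 and 0.00195).

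Umps, which makes uridine monophosphate, read 9.02, 9.07, 8.95 and 8.89 in untreated WT and 7.60, 6.72 and 6.79 at 24 h. The D- arrays read 8.98, 8.81, 8.71 and 8.82 untreated and 8.60, 7.66 and 7.98 at 24 h. All arrays at 24 h were under the untreated ones, by less in D-. Umps fell by 1.94 in WT (± 0.19, adjusted p = 1.94e-08) and by 0.75 in D- (± 0.19, adjusted p = 0.00315).

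Ctps1, the CTP synthase that proliferating lymphocytes depend on, was the only pyrimidine gene that fell at 2 h in WT (-0.67 ± 0.17, adjusted p = 0.00439), a call lost without WT replicate 3 at 2 h (adjusted p = 0.0515). It read 10.35, 10.33, 10.50 and 10.47 in untreated WT, 8.87, 8.49 and 8.71 at 6 h, and 8.92, 8.00 and 8.21 at 24 h. D- read 10.38, 10.51, 10.55 and 10.52 untreated, 9.25, 9.01 and 9.18 at 6 h, and 9.38, 8.99 and 8.97 at 24 h. Both lines were low at 6 h and still low at 24 h. The change at 24 h was -2.04 ± 0.17 in WT (adjusted p = 2.39e-09) and -1.38 ± 0.17 in D- (adjusted p = 1.52e-06).

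Its paralogue Ctps2 rose instead. It read 6.09, 6.06, 7.05 and 6.58 in untreated WT and 7.66, 8.75 and 8.34 at 24 h, a rise of 1.81 ± 0.29 (adjusted p = 2.15e-05). The D- arrays went from 6.23, 5.98, 6.01 and 6.06 to 6.96, 7.61 and 7.44, a rise of 1.26 ± 0.29 (adjusted p = 0.00199), with no overlap in either line. A second probe set of Ctps2 averaged log2 3.02 over all arrays and was not tested. Dhodh, the mitochondrial dehydrogenase of the pathway, fell in WT at 24 h (-1.07 ± 0.20, adjusted p = 0.000128) and gave -0.35 ± 0.20 in D- (adjusted p = 0.206). Uck2, a uridine and cytidine kinase, fell by 1.44 in WT (± 0.17, adjusted p = 3.52e-07) and by 0.61 in D- (± 0.17, adjusted p = 0.0077). The D- call for Uck2 was lost without D- replicate 2 at 24 h (-0.53, adjusted p = 0.0524). Cmpk1, which phosphorylates the monophosphates of uridine and cytidine, passed no test against untreated, with 0.17 ± 0.19 in WT and 0.10 ± 0.19 in D- at 24 h (adjusted p = 0.484 and 0.736).

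The purine synthesis genes fell early. All 6 tested fell in WT at 6 h and at 24 h, and 5 and 4 of them fell in D-. At 6 h the D- calls for Adsl and Adss2 were lost in 3 and 2 of 7 fits without 1 array (highest adjusted p = 0.0896 and 0.0905). The WT call for Impdh1 at 6 h was lost in 1 of 7 (adjusted p = 0.0629). Impdh1 was also called lower at 2 h in both lines, a call lost in 5 of 7 such fits in each (highest adjusted p = 0.207 in WT and 0.282 in D-). Over the 7 measured, the median change was -0.71 in WT and -0.53 in D- at 6 h, and -0.93 and -0.39 at 24 h.

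Ppat, which catalyses the committed step, was already lower at 2 h, by 0.56 in WT (± 0.19, adjusted p = 0.0381) and by 0.67 in D- (± 0.19, adjusted p = 0.0147). The WT call at 2 h was lost without replicate 1 or 3 at 2 h, or without the untreated replicate 3 or 4 (highest adjusted p = 0.138). The D- call for Ppat at 2 h was lost without D- untreated replicate 4 (-0.59, adjusted p = 0.051) or D- replicate 1 at 2 h (-0.53, adjusted p = 0.1). Ppat read 9.61, 9.66, 10.45 and 10.15 in untreated WT, 8.28, 8.58 and 8.36 at 6 h, and 8.19, 7.81 and 7.67 at 24 h. The D- line read 9.89, 9.74, 10.11 and 10.26 untreated, 8.48, 8.61 and 8.85 at 6 h, and 8.76, 8.43 and 8.65 at 24 h. The arrays at 6 and 24 h kept clear of the untreated ones in both lines. The change at 24 h was -2.08 ± 0.19 in WT, a 4.22-fold fall (adjusted p = 1.51e-08), and -1.39 ± 0.19 in D-, a 2.62-fold fall (adjusted p = 9.52e-06).

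Gart, whose product carries 3 steps of the pathway, read 11.07, 11.14, 11.17 and 10.93 in untreated WT, 9.66, 9.04 and 9.23 at 6 h, and 9.54, 8.73 and 8.70 at 24 h. The D- arrays read 10.94, 10.86, 10.92 and 10.94 untreated, 9.78, 9.21 and 9.40 at 6 h, and 10.16, 9.20 and 9.69 at 24 h. Most of the fall was present at 6 h in each line. It reached -1.77 ± 0.21 in WT and -1.45 ± 0.21 in D- at 6 h (adjusted p = 1.24e-06 and 2.03e-05), and -2.09 ± 0.21 and -1.23 ± 0.21 at 24 h (adjusted p = 3.94e-08 and 0.0001).

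Paics, the neighbour of Ppat, encodes an enzyme of later steps and moved less. It read 12.91, 12.67, 12.81 and 13.01 in untreated WT and 12.13, 11.85 and 11.79 at 24 h, without overlap (-0.93 ± 0.14, adjusted p = 8.8e-06). In D- it read 12.67, 13.07, 12.52 and 12.77 untreated and 12.46, 12.35 and 12.68 at 24 h, with overlap (-0.26 ± 0.14, adjusted p = 0.165). At 6 h Paics had fallen in both lines, by 0.71 in WT (± 0.14, adjusted p = 0.000408) and by 0.53 in D- (± 0.14, adjusted p = 0.00582), the latter not called within set 2 (-0.41, adjusted p = 0.106) or set 1 (-0.66, adjusted p = 0.159). With the mean of its probe sets in place of the brightest, Paics was lower in D- at 24 h too (-0.40, adjusted p = 0.000791).

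Adsl, adenylosuccinate lyase, read 10.73, 10.71, 10.29 and 10.22 in untreated WT and 9.79, 8.58 and 9.07 at 24 h, a fall of 1.34 (± 0.23, adjusted p = 5.33e-05). The D- arrays went from 10.31, 10.25, 9.99 and 10.27 to 9.97, 9.15 and 9.42, a fall of 0.69 (± 0.23, adjusted p = 0.0268) lost without D- untreated replicate 1, 2 or 4 or D- replicate 2 or 3 at 24 h (highest adjusted p = 0.17). In both lines replicate 1 lay nearest the untreated arrays. Adss2, adenylosuccinate synthase, fell by 0.60 in WT (± 0.12, adjusted p = 0.000209) and by 0.39 in D- (± 0.12, adjusted p = 0.0136), the latter lost without D- replicate 3 at 24 h (adjusted p = 0.0525). Impdh1, an inosine monophosphate dehydrogenase, fell by 0.33 in WT (± 0.12, adjusted p = 0.0292), lost without WT untreated replicate 1 or WT replicate 1 or 3 at 24 h (highest adjusted p = 0.0883), and gave 0.08 ± 0.12 in D- (adjusted p = 0.687).

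Genes of purine salvage and conversion did not move as a block. Of 6 measured, 5 fell and 1 rose in WT at 24 h, and 4 fell in D-, with medians of -0.96 and -0.66. Adk was the one gene called in opposite directions in the lines at 6 h, and Adk and Dut were the 2 so called at 24 h.

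Adk encodes adenosine kinase, which returns adenosine to the nucleotide pool. Its arrays read 11.33, 11.34, 11.04 and 11.10 in untreated WT, 11.55, 12.28 and 12.03 at 6 h, and 11.82, 12.47 and 12.47 at 24 h. In D- they read 10.85, 11.24, 10.83 and 11.10 untreated, 10.75, 10.12 and 10.46 at 6 h, and 9.62, 9.23 and 9.19 at 24 h. From overlapping untreated levels, every treated WT array at these times lay above the untreated ones and every D- array below. Adk rose by 0.75 ± 0.19 at 6 h and 1.05 ± 0.19 at 24 h in WT (adjusted p = 0.00325 and 6.29e-05). In D- Adk fell by 0.56 at 6 h (± 0.19, adjusted p = 0.027), lost without D- untreated replicate 2 or 4 or D- replicate 2 or 3 at 6 h (highest adjusted p = 0.177). At 24 h it fell by 1.66 in D-, a 3.15-fold fall (± 0.19, adjusted p = 6.66e-07). A further bright probe set of Adk changed by 1.03 ± 0.23 in WT and -1.79 ± 0.23 in D- at 24 h (adjusted p = 0.000805 and 4.15e-06). One more probe set, near the filter, rose by 0.38 in WT (± 0.13, adjusted p = 0.0167) and was under it in D-.

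Ada, adenosine deaminase, read 11.53, 11.57, 10.78 and 10.94 in untreated WT and 10.00, 9.28 and 9.67 at 24 h, a fall of 1.55 (± 0.19, adjusted p = 5.71e-07). For D- the arrays read 10.91, 10.96, 10.92 and 10.99 untreated, 10.08, 9.90 and 10.13 at 6 h, and 10.85, 10.35 and 10.57 at 24 h. By group mean Ada was lowest at 6 h in D- (-0.91 ± 0.19, adjusted p = 0.000908) and lay closer to the untreated arrays at 24 h (-0.35 ± 0.19, adjusted p = 0.165). Within set 2, Ada was lower in D- at 24 h also (-0.49, adjusted p = 0.0169).

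Pnp, purine nucleoside phosphorylase, which acts after adenosine deaminase, rose early and came back. It read 9.84, 9.77, 9.73 and 9.72 in untreated WT, 10.07, 10.15 and 10.32 at 2 h, 10.51, 10.50 and 10.67 at 6 h, and 9.5, 9.33 and 9.68 at 24 h. In D- it read 9.67, 9.83, 9.58 and 9.78 untreated, 10.32, 10.27 and 10.23 at 2 h, 10.33, 10.35 and 10.54 at 6 h, and 9.55, 9.69 and 9.60 at 24 h. Every array at 2 and 6 h lay above every untreated one in both lines. Pnp was the member that rose at 2 h, by 0.41 ± 0.09 in WT and 0.56 ± 0.09 in D- (adjusted p = 0.00187 and 0.000105), and at 6 h it was up by 0.79 ± 0.09 and 0.69 ± 0.09 (adjusted p = 9.64e-07 and 7.63e-06). At 24 h it was lower in WT by 0.26 (± 0.09, adjusted p = 0.0226), lost without WT untreated replicate 1 or WT replicate 2 at 24 h (highest adjusted p = 0.165), and gave -0.10 ± 0.09 in D- (adjusted p = 0.464).

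Hprt1, which salvages hypoxanthine and guanine, read 11.79, 11.71, 11.84 and 11.71 in untreated WT and 10.43, 10.07 and 10.25 at 24 h. The D- arrays went from 11.57, 11.51, 11.65 and 11.29 to 11.11, 10.65 and 10.73, so both lines fell without overlap. The change was -1.51 ± 0.11 in WT (adjusted p = 4.73e-10) and -0.67 ± 0.11 in D- (adjusted p = 5.77e-05). Aprt, the matching enzyme for adenine, read 10.74, 10.83, 10.33 and 10.27 in untreated WT and 9.83, 8.87 and 9.05 at 24 h, and 10.22, 10.51, 10.36 and 10.20 in untreated D- and 9.62, 9.12 and 8.58 at 24 h. Aprt fell by 1.29 in WT (± 0.27, adjusted p = 0.000331) and by 1.22 in D- (± 0.27, adjusted p = 0.00128), again without overlap. Guk1, guanylate kinase, fell by 0.62 in WT and by 0.65 in D- (± 0.15 in each, adjusted p = 0.00136 and 0.00179).

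The shared genes supply the sugar phosphate or the last phosphate. All 4 fell in WT at 24 h and 3 in D-, with medians of -1.15 and -0.54. Prps1 and Prps2 make phosphoribosyl pyrophosphate, the substrate of synthesis and salvage alike. Prps1 read 10.31, 10.42, 10.32 and 10.40 in untreated WT and 8.94, 8.13 and 8.57 at 24 h, and 10.39, 10.43, 10.51 and 10.59 in untreated D- and 9.80, 9.28 and 9.60 at 24 h. It fell by 1.82 in WT (± 0.13, adjusted p = 5.86e-10) and by 0.92 in D- (± 0.13, adjusted p = 1.45e-05), without overlap.

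Prps2 read 9.85, 9.93, 9.84 and 9.70 in untreated WT and 8.76, 8.01 and 8.01 at 24 h, a fall of 1.58 (± 0.23, adjusted p = 4.73e-06). In D- it read 10.11, 9.86, 9.35 and 9.37 untreated and 9.64, 8.69 and 8.91 at 24 h, with overlap, a fall of 0.60 (± 0.23, adjusted p = 0.0473). That call was lost without D- untreated replicate 1 or 2 or D- replicate 2 or 3 at 24 h (highest adjusted p = 0.27). Its untreated D- arrays split by set, with replicates 1 and 2 above 3 and 4. Nme1, a nucleoside diphosphate kinase, read 13.69, 13.79, 13.56 and 13.45 in untreated WT and 13.26, 12.56 and 12.85 at 24 h, and 13.46, 13.42, 13.53 and 13.36 in untreated D- and 13.49, 12.88 and 12.96 at 24 h. It fell by 0.73 in WT (± 0.15, adjusted p = 0.000204) and gave -0.33 ± 0.15 in D- (adjusted p = 0.0867), called without D- replicate 1 at 24 h (-0.52, adjusted p = 0.00678) and with the set of arrays as a block (-0.29, adjusted p = 0.0352). Nme2 fell by 0.32 in WT (± 0.10, adjusted p = 0.0124), lost without WT replicate 2 at 24 h (adjusted p = 0.0758), and by 0.48 in D- (± 0.10, adjusted p = 0.00105). Nme1 and Nme2 are near-identical paralogues, so their signals may mix.

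Whether the response itself differed between the lines was tested as an interaction, D- minus WT. At 2 h no member passed, where 0.0393% and 0.173% of all probe sets were called higher and lower, and limma gave no member an unadjusted p under 0.05. At 6 h 1 member passed, Adk, at -1.31 ± 0.27 (adjusted p = 0.0204), against 0.141% and 0.377% of all. That call was lost without the untreated D- replicate 2 (adjusted p = 0.053), D- replicate 2 or 3 at 6 h (0.0845 and 0.0574) or WT replicate 2 or 3 at 6 h (0.101 and 0.0671).

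At 24 h, 15 of 33 members differed, 13 with a response above that of WT and 2 below, where 7.1% and 4.69% of all probe sets were called so. Within set 2 the count was 19. Within set 1 it was 0, with 17 at an unadjusted p under 0.05, from 1 treated array per group. Without WT replicate 1 at 24 h the count was 22, and over the other arrays left out in turn it was 12 to 16.

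Among the deoxynucleotide genes, 7 of 10 differed, with a median of 1.20. Tk1 differed by 2.38 ± 0.43 (adjusted p = 0.000784), Rrm2 by 1.77 ± 0.20 (adjusted p = 7.33e-06) and Rrm1 by 1.5 ± 0.25 (adjusted p = 0.00028). Dtymk, Tyms and Dut differed by 1.35, 1.27 and 1.14, and Samhd1 was called lower (adjusted p = 0.00283). No size is given for Samhd1 here, because 3 of the 4 groups in its difference lay under log2 5. These 6 upward differences and Samhd1 kept their call in each fit without 1 array. Within set 2 and set 1 the difference was 2.45 and 2.12 for Tk1, 2.15 and 1.13 for Rrm2, and 1.87 and 0.95 for Rrm1. All 12 replication genes listed for reference differed as well, with a median of 1.63.

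Of the pyrimidine genes, Umps (1.19 ± 0.26, adjusted p = 0.00374) and Uck2 (0.83 ± 0.24, adjusted p = 0.0257) differed. Among the purine synthesis genes only Paics did (0.67 ± 0.20, adjusted p = 0.0298). Gart, Ppat, Ctps1 and Cad, which fell in both lines, did not pass. Gart differed by 0.86 (95% interval 0.25 to 1.48, adjusted p = 0.0636), Ppat by 0.69 (0.12 to 1.26, adjusted p = 0.112), Ctps1 by 0.66 (0.17 to 1.15, adjusted p = 0.0724) and Cad by 0.71 (-0.05 to 1.47, adjusted p = 0.237). These intervals are not adjusted for the number of tests, and each reaches past 1 log2 unit. Within set 2 all 4 were called, at 0.85, 0.92, 0.83 and 1.03 (adjusted p = 0.0264, 0.0184, 0.0115 and 0.00625). Within set 1 none was called, and Cad was at 0.04. With the set of arrays as a block, Gart, Ppat and Ctps1 were called (adjusted p = 0.0158, 0.0498 and 0.0295) and Cad was not (adjusted p = 0.137).

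In the remaining roles, Adk differed by -2.71 ± 0.27 (adjusted p = 1.48e-06), at -3.16 within set 2 and -1.91 within set 1. Ada differed by 1.20 ± 0.27 (adjusted p = 0.00438) and Hprt1 by 0.84 ± 0.15 (adjusted p = 0.000896). Prps1 differed by 0.89 ± 0.19 (adjusted p = 0.00276) and Prps2 by 0.98 ± 0.32 (adjusted p = 0.0496). Uck2, Paics and Prps2 lost the call in 6, 8 and 11 of 14 fits without 1 array (highest adjusted p = 0.109, 0.0909 and 0.172), WT replicates 2 and 3 and D- replicates 1 and 3 at 24 h among them for each gene. Aprt and Guk1, which fell in both lines, gave 0.08 (95% interval -0.71 to 0.87) and -0.03 (-0.47 to 0.41). A missing call does not show that the lines act alike, and the intervals give the sizes the arrays leave possible.

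**Figure D4:**
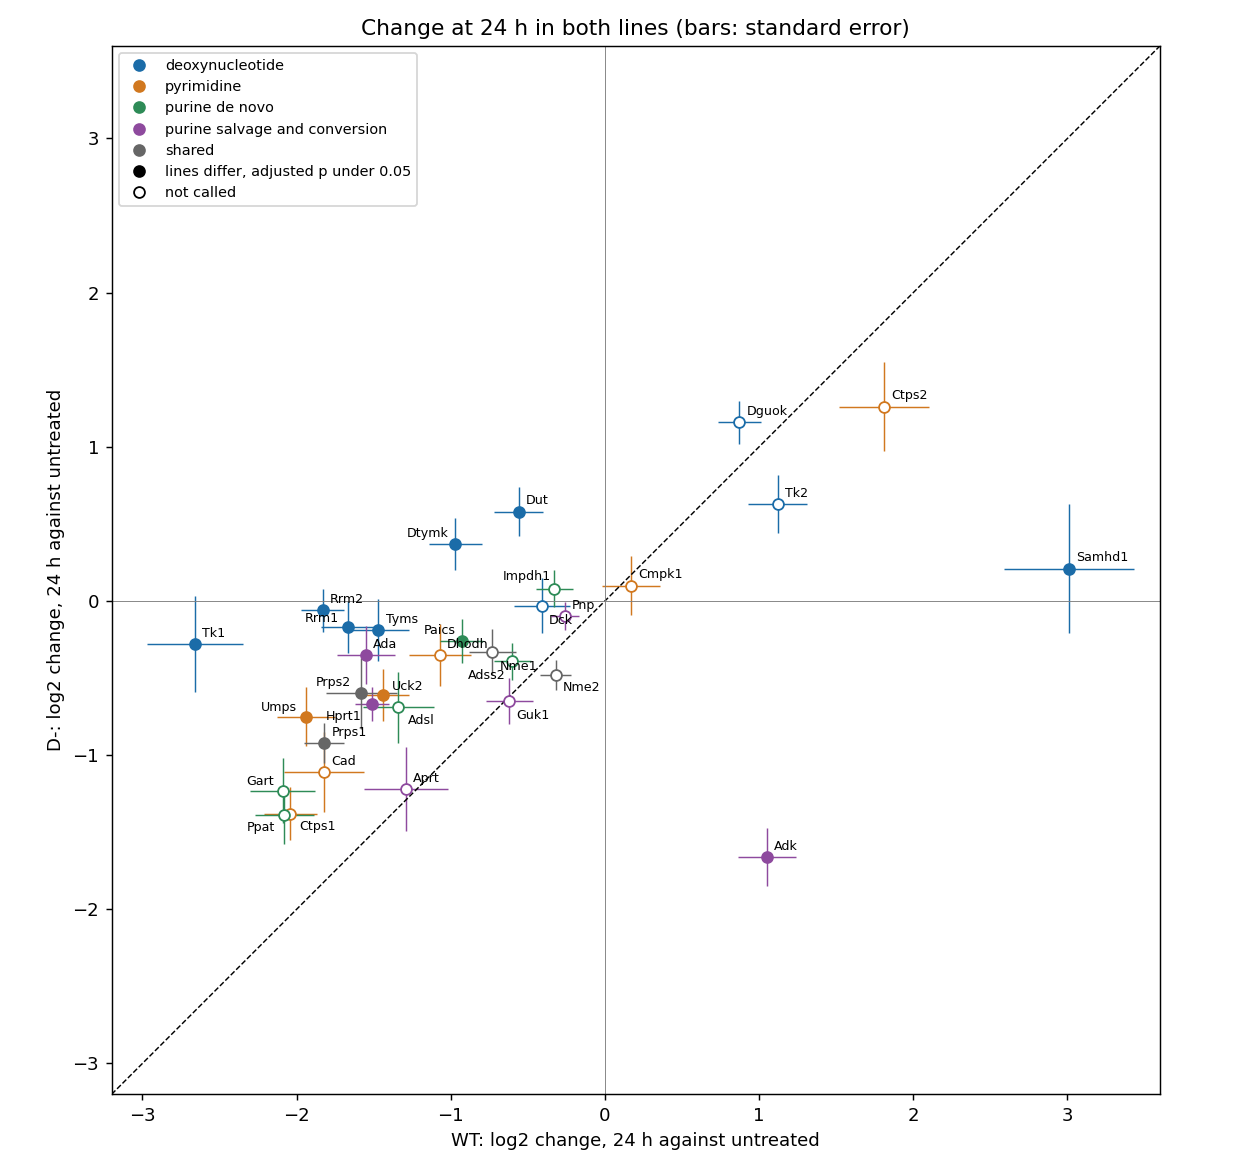
Log2 change at 24 h in WT (x axis) and D- (y axis) for the 33 tested members, coloured by role, with standard errors; filled points mark members whose response differed between the lines, and the dashed line marks equal change. Samhd1 is drawn at its fitted values, which have only a bound. Tk1, Rrm1, Rrm2 and Tyms lie near 0 on the D- axis and far to the left, Gart, Ppat, Ctps1 and Cad lie low on both axes, and Adk lies alone at the lower right.

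The later interval was also tested directly, 24 h against 6 h within each line. In WT, 4 members rose and 11 fell, against 14.2% and 16.7% of all probe sets, and 5 of the 11 were deoxynucleotide genes. Of these 15 calls, 11 held in every fit without 1 array. Those for Dtymk, Tyms and Tk2 were lost in 3, 2 and 3 of 6 such fits (highest adjusted p = 0.222, 0.116 and 0.216). The call for Tk1 was lost in 1 of 12 alternative fits other than set 1 alone (adjusted p = 0.055). Rrm1 fell by 1.81 in that interval (± 0.19, adjusted p = 2.59e-07), Tk1 by 1.55 (± 0.33, adjusted p = 0.000919) and Rrm2 by 1.24 (± 0.15, adjusted p = 1.99e-06). No purine synthesis gene was called, with 1 at an unadjusted p under 0.05, with -0.32 ± 0.22 for Gart (adjusted p = 0.307) and -0.52 ± 0.21 for Ppat (adjusted p = 0.0641). In D-, 5 members rose and 3 fell, against 7.2% and 7.72% of all.

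The members that rose in D- from 6 to 24 h were Tyms, Dut, Dguok and Dtymk of the deoxynucleotide genes, and Ctps2. Dut rose by 1.26 ± 0.17 (adjusted p = 3.51e-05), Dtymk by 0.75 ± 0.18 (adjusted p = 0.00643) and Tyms by 0.69 ± 0.22 (adjusted p = 0.034). Tk1 (0.75 ± 0.33, adjusted p = 0.131) and Rrm2 (0.44 ± 0.15, adjusted p = 0.0514) had all arrays at 24 h above those at 6 h without passing the test. Adk, Pnp and Guk1 fell in that interval. The D- count was 5 without D- replicate 2 at 6 h or replicate 2 or 3 at 24 h, and 11 without D- replicate 1 at 24 h, with the calls for Tyms, Ctps2 and Guk1 lost in 4 of 6 fits each.

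Other genes of the nucleotide pathway, 47 by a list of catabolic, kinase and transport genes, were less often measured. Of these, 36 had a probe set and 24 were tested. In WT at 24 h 5 rose and 12 fell, where 24.6% and 28.0% of all probe sets did. In D- 3 rose and 4 fell, shares under the 16.0% and 17.4% of all probe sets. Slc29a1, the equilibrative nucleoside transporter, fell by 1.90 in WT (± 0.37, adjusted p = 0.000159) and gave -0.12 ± 0.37 in D- (adjusted p = 0.854). Its response differed by 1.78 ± 0.52 (adjusted p = 0.0273), as did those of Ak4, an adenylate kinase under log2 5 in WT, for which no size is given (adjusted p = 0.0223), and Nudt1, which clears oxidised purine nucleotides (0.70, adjusted p = 0.00364). These 3 of the 24 were all upward, where 7.1% of all probe sets were called so. Dctpp1, a dCTP pyrophosphatase, fell by 1.99 in WT and 0.85 in D-, and Dnph1, a deoxynucleotide hydrolase, by 1.88 and 1.01. The list's median change was -0.09 in WT and 0.00 in D- at 24 h.

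Folate genes, which supply one-carbon units to purine and thymidylate synthesis, fell in both lines. All 6 tested of 9 fell at 24 h in WT and in D-, with medians of -1.74 and -1.14 over the 7 measured, and 6 and 5 fell at 6 h. Shmt2, the mitochondrial serine hydroxymethyltransferase, fell by 2.70 in WT and 1.83 in D- (± 0.25 in each, adjusted p = 1.1e-08 and 6e-06), and Mthfd1, a folate enzyme of the cytosol, by 1.93 and 1.26. The difference between the lines at 24 h was called for 1 of the 6, Mthfd2 (1.09 ± 0.28, adjusted p = 0.0115), a mitochondrial folate enzyme. Of all probe sets, 7.1% were called upward and 4.69% downward in that difference.

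Where genes had several tested probe sets, their calls mostly agreed. Of the 34 measured members, 19 had more than 1 probe set, and 23 of the 31 further probe sets, of 16 genes, were tested. In no comparison was a further probe set called opposite to the first. Of 276 pairs of calls 235 were alike, which counts pairs where neither probe set was called. The further probe sets of Rrm2 gave -1.93 and -2.42 in WT at 24 h and -0.10 and 0.00 in D-, and that of Rrm1 gave -1.83 and -0.01. A second Dut probe set fell at 2 h, by 1.52 in WT and 1.19 in D-, where the brightest gave -0.02 and -0.04, so the early course of Dut depended on the probe set. At 24 h that second Dut probe set fell in WT (-1.13 ± 0.24, adjusted p = 0.000442) and gave 0.42 ± 0.24 in D- (adjusted p = 0.196). The brightest probe sets of Rrm2, Paics, Adk, Cad, Ppat, Aprt and Dhodh are of designs that can also bind related transcripts, and Pnp and Prps1 each have a further probe set shared with another gene, not used here.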

How the data were processed

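Total RNA from S49 WT and D- cells was hybridised to 26 one-colour Affymetrix mouse arrays. The authors deposited 1 linear intensity per probe set and array, made with GCRMA per the submitters' processing notes. The GCRMA version is not given in the sources used here, nor is whether WT and D- arrays went through 1 normalization. The method pulls low signals to a floor and so understates changes of dim genes.

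Intensities were put on the log2 scale without a pseudocount. Of 22690 probe sets, 64 controls were left out and 20380 of the rest carried 1 gene symbol, 691 several and 1555 none. The filter asked for log2 5 (an intensity of 32) or more on 3 or more arrays and left 12724 probe sets to test. One limma model (version 3.58.1, R 4.3.3) held all 8 groups (18 residual and 3.34 prior degrees of freedom), with 12 contrasts and Benjamini-Hochberg adjustment within each contrast. Against a group whose mean was below log2 5, a change is printed only as a bound, except the fitted difference between lines for Samhd1 in the closing section.

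Each gene is represented by its brightest own probe set, matched by Entrez ID, 4 of them through an alias (Ctps1, Adss1, Adss2 and Hprt1). Every member is accounted for. Values by array were to be given for a fixed list of members, the 3 largest changes per role in WT at 24 h and the 5 largest called line differences, and other genes of the pathway by counts and their largest changes. Members and lists were chosen with earlier results of these data known. Promoters came from a RefSeq table on GRCm38.p6 that held 33 of the 34 measured members.

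Each result was recomputed with no filter, a filter at log2 7, log2 of intensity plus 32, quantile normalization on top, median centring, array weights, a robust and trended eBayes step, and a fit to only those groups a contrast needs. Further fits averaged a gene's probe sets, blocked on replicate number or on the set of arrays, used 1 set alone, or left out 1 array. The model was tested on simulated data. Tables and figures were made with Python 3.11.15, pandas 2.3.3 and matplotlib 3.10.9.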

Additional observations from a re-analysis of the deposited data

Results flagged for a closer look

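The response of 15 members at 24 h, and of 1 of them also at 6 h, differed between D- and WT by limma's interaction term at an adjusted p under 0.05. The log2 differences, D- minus WT, at 24 h were 2.38 for Tk1, 1.77 for Rrm2, 1.5 for Rrm1, 1.35 for Dtymk, 1.27 for Tyms, and 1.14 for Dut among the deoxynucleotide genes. For Samhd1 the model fitted -2.8, a value with no firm size because 3 of the 4 groups in it lay under log2 5. They were 1.19 for Umps and 0.83 for Uck2 among the pyrimidine genes and 0.67 for Paics in purine synthesis. In salvage they were 0.84 for Hprt1, 1.2 for Ada and -2.71 for Adk, with -1.31 for Adk at 6 h. Among the shared genes they were 0.89 for Prps1 and 0.98 for Prps2.

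One array stood apart within its group. Rrm2 on D- untreated replicate 4 was the highest of its group at 13.29, with the next at 13.12. This was 1 of 66 untreated groups of 4 looked at over 33 genes, and chance alone would mark about 1 in 20.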

How the results depend on the processing

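Of 8520 member results under the alternatives, 8055 kept their direction and side of the threshold, 154 gained a call, 311 lost one, and none with a call reversed. Samples that share a replicate number did not all deviate together (the lowest pairwise correlation was 0.194, -0.468, 0.0294 and 0.274 for replicates 1 to 4), so the numbers were not taken as pairs, and with the replicate number as a block 15 member results gained a call, 3 lost one and 378 of 396 did neither.

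Counts of called members moved by more than 1.5 times as follows, and the cause was not tested. The 4 called in WT at 2 h became 7 with array weights, 7 with the replicate block and 8 with the array set as a block. The 4 in D- at 2 h became 2 with quantile normalization, 2 with median centring and 2 without a filter. The 1 between untreated lines became 2 with array weights. From 6 to 24 h, the 15 in WT became 26 with array weights and 9 with only the groups compared, and the 8 in D- became 13 with array weights, 14 with the array set as a block and 15 within array set 2. Within array set 1, which has 2 residual degrees of freedom, counts were 0 in WT at 2 h, 12 in WT at 6 h, 1, 6 and 5 in D- at 2, 6 and 24 h, 0 between untreated lines, 0 and 0 for the difference between lines at 6 and 24 h, and 0 and 0 for 24 h against 6 h in WT and D-. For these counts of 0, limma gave an unadjusted p under 0.05 to 7 members in WT at 2 h, 7 between untreated lines, 1 and 17 for the differences at 6 and 24 h, and 14 and 9 for the later interval.

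With each array left out in turn, counts ran from 1 to 4 in WT and 1 to 3 in D- at 2 h, 20 to 26 and 14 to 21 at 6 h, and 28 to 32 and 15 to 20 at 24 h. The difference between lines gave 0 to 1 at 6 h and 12 to 22 at 24 h, and 24 h against 6 h gave 12 to 21 in WT and 5 to 11 in D-. Small role medians changed sign: the purine synthesis difference at 2 h was -0.30 within array set 1, the deoxynucleotide difference at 6 h was 0.07 with a filter at log2 7, and the shared genes gave 0.16 within array set 1 for 24 h against 6 h in D-. For that interval the purine synthesis median in D- ran from -0.02 without D- replicate 1 at 24 h to 0.27 without D- replicate 2. Genes near log2 5, among them Samhd1, have only bounds on their change.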
